A study of Mus musculus with 12 samples.

Results

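Elastic fibres give the lung its recoil. They consist of a core of crosslinked elastin laid down on a scaffold of fibrillin microfibrils, with fibulins, microfibril-associated glycoproteins and latent TGF-beta binding proteins as bridges and regulators. In the healthy adult lung they run through vessel walls, airways, pleura and the rims of the alveoli, and most elastin is made while the lung is developing. The 10 genes described here are Eln, Fbn1, Mfap2, Mfap4, Mfap5, Fbln1, Fbln2, Fbln5, Ltbp1 and Ltbp2. They were chosen by name, with earlier results of these data known, from the 20774 genes listed in the deposited tables. All 10 were among the 15921 genes tested.

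The study profiled RNA from homogenised lung tissue of mice with paraquat-induced pulmonary fibrosis. Paraquat (PQ) is a herbicide that damages the lung, and it was delivered in saline into the trachea on 1 occasion, while control mice received saline only. The mice of every group were wild type, of the C57BL/6J strain, and labelled 8 weeks of age. The 4 groups were control 1w, PQ 1w, control 4w and PQ 4w, where the label 1w or 4w was read as weeks after treatment, and each had 3 libraries. The dose of PQ, and whether tissue was pooled, is not stated in the sources used here. The labels number the replicates without saying that each came from its own animal, and the p-values therefore reflect the spread among these libraries, which may be technical. Library totals were 17220978 to 18559809 expected counts. Levels are given as CPM, expected counts scaled to a common library total, for 1 gene across libraries, and as FPKM, which also accounts for transcript length, where genes are set beside each other. A gene rose or fell where its adjusted p was under 0.05. Values after ± are standard errors for log2 effects and SDs for levels, with n = 3 throughout. The lung markers Sftpc, of alveolar type 2 cells, and Ager, of alveolar type 1 cells, were abundant in all 12 libraries, at no less than 9006 and 1080.1 CPM. In bulk tissue, fewer cells of a type and less RNA per cell cannot be told apart.

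At 1w after PQ, 7 of the 10 genes rose and 1 fell. Of all genes tested, 25.9% rose and 22.9% fell in the same comparison. The median log2 effect of the 10 genes was 0.91, and that of all genes tested was 0.0047. Elastin had the highest effect of the 10, and the fibulins and the microfibril-associated proteins each held members that moved and members that did not pass or went the other way. At 4w, 3 of the 10 rose (Mfap4, Mfap5 and Ltbp2) and Mfap2 fell, where 5.75% of all genes rose and 6.39% fell. The median effect at 4w was -0.01 against 0.0044 over all genes. With plain library totals in place of scaled totals, the genes called at 4w split into 1370 that rose and 631 that fell, where the scaled totals gave 915 and 1017. The same 4 of the 10 passed under both.

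**Figure D1:**
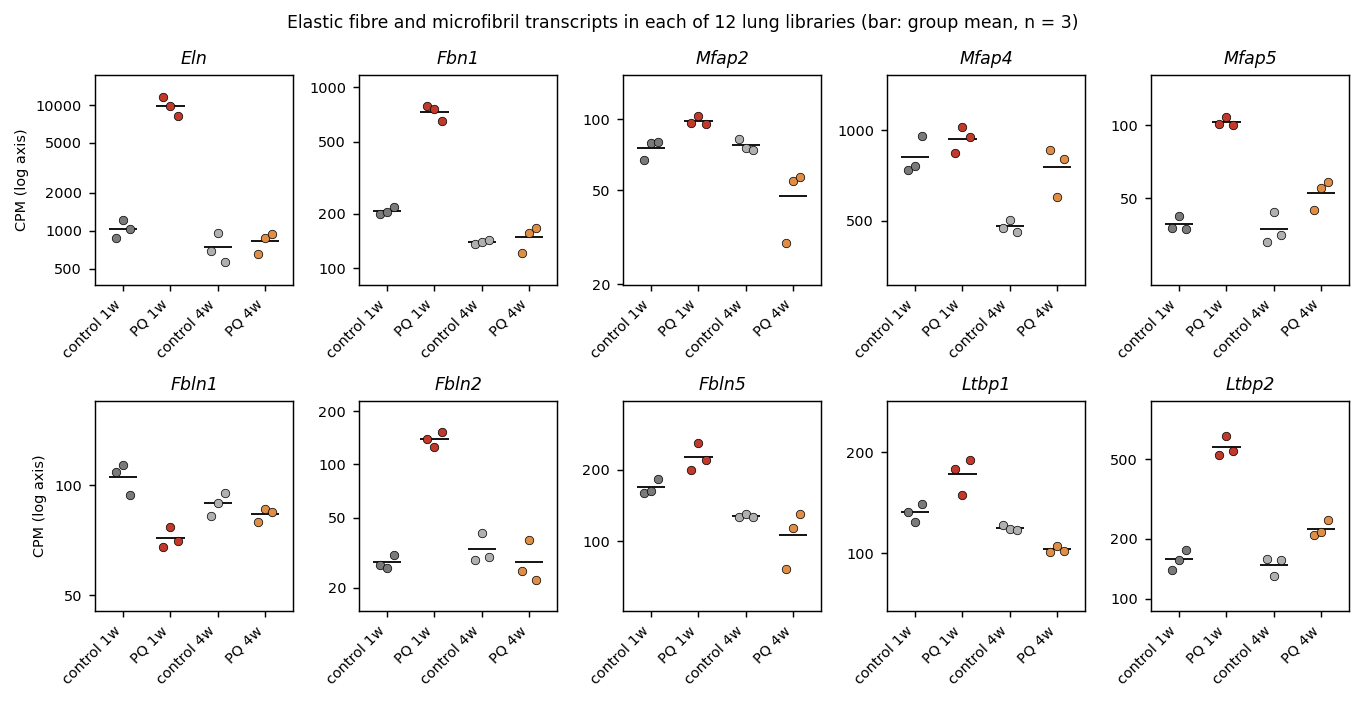
Each panel plots 1 gene, with CPM on a log axis and the 3 libraries of each group as points (bar, group mean). PQ 1w lies above the other groups for Eln (8167 to 11661 CPM), Fbn1, Mfap5, Fbln2 and Ltbp2, and more narrowly for Mfap2, Fbln5 and Ltbp1. It lies below control 1w for Fbln1 (67.9 to 76.7 against 94.1 to 114 CPM).

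Eln encodes tropoelastin, the soluble monomer that is crosslinked into the fibre core (chromosome 5, 134702595 to 134747368, minus strand, GRCm38.p6). Its levels in control 1w were 869, 1215 and 1026 CPM, and in PQ 1w 11661, 9862 and 8167 CPM. Every PQ 1w library lay far above every control library, with no overlap. Of all genes tested, 58.7% had PQ and control groups that did not overlap at 1w, and 31.2% at 4w. The rise was 9.55-fold (log2 3.26 ± 0.22, adjusted p = 4.99e-07). Only 0.546% of the genes tested, 87 in number, had a log2 effect at least that large.

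Elastin transcripts made up 0.0860 to 0.118% of all counts in control 1w libraries and 0.816 to 1.14% in PQ 1w libraries. By mean FPKM, Eln ranked 227 of 19311 listed genes in control 1w and 9 of 19536 in PQ 1w. At 4w the levels were 689, 966 and 559 CPM in controls and 655, 881 and 936 CPM after PQ. These ranges overlapped, and the effect did not pass (log2 0.16 ± 0.21, adjusted p = 0.661). Between the PQ groups, Eln was 12.01-fold lower at 4w than at 1w (adjusted p = 2.66e-07).

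Fbn1 encodes fibrillin-1, the main structural protein of microfibrils in the adult (chromosome 2, 125300594 to 125506485, minus strand). Control 1w libraries held 199.9, 204 and 219.6 CPM and PQ 1w libraries 784, 758 and 651 CPM. The groups did not overlap, and Fbn1 rose 3.52-fold (log2 1.81 ± 0.11, adjusted p = 1.93e-07). At 4w the controls were at 136, 141 and 144 CPM, and the PQ libraries, at 122, 157 and 167 CPM, lay on both sides of them. That effect did not pass (log2 0.08 ± 0.11, adjusted p = 0.653). A predicted protein-coding gene on the other strand, Gm9913, overlaps Fbn1. No source used here gives the strandedness of the libraries, so reads of the pair could not be told apart. Genes not annotated as protein-coding overlap Eln (Gm30003) and Ltbp2 (D030025P21Rik) on the other strand, and Ltbp1 (Gm6276) on the same strand. Their part in the counts was not examined.

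The fold rise of Fbn1 (3.52) was below that of Eln (9.55) in the same libraries. The ratio of Fbn1 to Eln FPKM was 0.0792 ± 0.0125 in control 1w and 0.0290 ± 0.00255 in PQ 1w. Its ranges, 0.0652 to 0.0893 and 0.0261 to 0.0310, did not overlap. An exact two-sided permutation test gave p = 0.10, the smallest that 3 against 3 libraries allow. At 4w the ratio was 0.0777 ± 0.0217 in controls and 0.0702 ± 0.00183 after PQ (exact permutation p = 0.70).

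The 3 microfibril-associated glycoproteins differed from each other in time course. Mfap5, which encodes MAGP-2, a small protein that binds fibrillin (chromosome 6, 122513584 to 122529290), was at 37.6, 42.4 and 37.3 CPM in control 1w and at 101, 108 and 100.1 CPM in PQ 1w. It rose 2.63-fold (log2 1.40 ± 0.12, adjusted p = 1.82e-06). Control 4w libraries held 33.0, 44.0 and 35.1 CPM, and PQ 4w libraries 44.6, 54.9 and 58.1 CPM. All PQ 4w values were above all controls, the nearest pair being 44.0 and 44.6 CPM. Mfap5 rose 1.40-fold at 4w (log2 0.49 ± 0.12, adjusted p = 0.0182). That call was lost when only the 4w groups were fitted (adjusted p = 0.0836), without control 4w replicate 1 (adjusted p = 0.0852) and without control 4w replicate 3 (adjusted p = 0.0626).

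Mfap2 encodes MAGP-1, the constitutive partner of fibrillin in microfibrils (chromosome 4, 141010424 to 141015976). Its libraries held 66.8, 79.4 and 79.8 CPM in control 1w and 96.5, 103 and 95.2 CPM in PQ 1w. The groups did not overlap, yet the effect did not pass (log2 0.38 ± 0.18, adjusted p = 0.0920). Groups stood apart in one direction or the other for 58.7% of all genes tested in this comparison. Mfap2 did pass at 1w when only the 1w groups were fitted (adjusted p = 0.00477) and without PQ 4w replicate 1, whose value entered the shared estimate of spread (adjusted p = 0.00160).

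At 4w Mfap2 was the 1 member that fell. Control libraries were at 82.7, 75.4 and 74.3 CPM and PQ libraries at 29.9, 54.7 and 56.9 CPM. All PQ values lay below all controls, and replicate 1 lay far below the other two. The fall was 1.64-fold (log2 -0.72 ± 0.18, adjusted p = 0.0241), and without that replicate log2 was -0.47 and still passed. The call was lost when only the 4w groups were fitted (adjusted p = 0.103) and without control 4w replicate 1, 2 or 3 (adjusted p = 0.0995, 0.0623 and 0.0575).

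Mfap4 encodes a fibrinogen-related glycoprotein that binds elastin and fibrillin and is made by vascular smooth muscle (chromosome 11, 61485431 to 61488708). Its 1w values were 738, 759 and 955 CPM in controls and 841, 1025 and 952 CPM after PQ. These overlapped, and the effect did not pass (log2 0.20 ± 0.13, adjusted p = 0.240). At 4w the controls were lower, at 474, 504 and 458 CPM, and the PQ libraries were at 858, 599 and 806 CPM, all above them. Mfap4 rose 1.58-fold at 4w (log2 0.66 ± 0.14, adjusted p = 0.0106). Of the PQ 4w values, 858 and 806 CPM lay within the 1w range of 738 to 1025 CPM and 599 CPM lay below it, as did all 4w controls. Mapk7 lies across Mfap4 on the other strand, and its own level was 34.6 to 42.4 CPM in all 12 libraries.

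The fibulins, calcium-binding glycoproteins of the matrix, split at 1w. Fbln2, which binds fibrillin and tropoelastin and is found at vessel walls and basement membranes (chromosome 6, 91212460 to 91272540), was at 26.8, 25.8 and 30.9 CPM in control 1w and 139.7, 126 and 153 CPM in PQ 1w. It rose 5.01-fold with no overlap (log2 2.33 ± 0.18, adjusted p = 1.28e-06). Fbln1, a fibulin of basement membranes and elastic fibres (chromosome 15, 85205949 to 85286294), moved the other way. It was at 108, 114 and 94.1 CPM in control 1w and at 67.9, 76.7 and 70.4 CPM in PQ 1w. Each PQ value was below each control, and Fbln1 fell 1.47-fold (log2 -0.56 ± 0.08, adjusted p = 0.000157).

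Fbln5, which tethers tropoelastin to microfibrils and to cell-surface integrins and is needed for elastic fibre assembly (chromosome 12, 101746565 to 101819119, minus strand), rose 1.34-fold at 1w. Its values were 159, 163 and 183 CPM in control 1w and 199, 259 and 219.6 CPM in PQ 1w, without overlap (log2 0.42 ± 0.15, adjusted p = 0.0368). The call did not hold without control 1w replicate 1 (adjusted p = 0.107), control 1w replicate 2 (0.0947), PQ 1w replicate 2 (0.145), PQ 1w replicate 3 (0.0655) or control 4w replicate 1 (0.0505).

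None of the 3 fibulins passed at 4w, in edgeR or in DESeq2, and none had an unadjusted p under 0.05. Fbln1 was at 82.4 to 95.4 CPM in controls and 79.1 to 86.0 CPM after PQ (log2 -0.10 ± 0.08, adjusted p = 0.472). Fbln2 was at 28.8 to 40.9 and 22.2 to 37.3 CPM (log2 -0.24 ± 0.18, adjusted p = 0.428). Fbln5 was at 126, 131 and 127 CPM in controls and 76.7, 114 and 129.9 CPM after PQ, so that replicate 3 lay among the controls and replicate 1 well below them (log2 -0.26 ± 0.15, adjusted p = 0.308).

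The promoters of Fbln1 and Fbln5 are shown because these 2 fibulins moved in opposite directions at 1w. The Fbln5 call was lost under several single-library omissions, as given above. Fbln2 rose more, and its window, with all 250 bases in annotated exon and 1 GC box, is not shown. Each line gives the 250 bases just before the annotated start (RefSeq, GRCm38.p6), 5′ to 3′ on the gene's strand, with matches to the motifs searched in capitals. Fbln1 and Fbln5 each have 2 annotated windows, and for each the one with no annotated exon base is shown.
Fbln1, chr15:85205699-85205948, plus strand: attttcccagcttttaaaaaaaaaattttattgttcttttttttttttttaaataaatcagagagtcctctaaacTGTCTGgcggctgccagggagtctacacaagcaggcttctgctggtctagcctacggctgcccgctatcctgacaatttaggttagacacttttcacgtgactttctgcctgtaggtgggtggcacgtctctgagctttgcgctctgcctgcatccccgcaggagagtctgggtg
Fbln5, chr12:101819120-101819369, minus strand: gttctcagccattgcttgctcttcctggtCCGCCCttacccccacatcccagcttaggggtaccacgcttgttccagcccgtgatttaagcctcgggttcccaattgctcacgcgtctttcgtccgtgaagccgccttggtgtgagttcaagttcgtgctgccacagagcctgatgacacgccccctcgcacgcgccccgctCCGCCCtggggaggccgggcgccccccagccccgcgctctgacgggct
Motifs were searched as exact letters on both strands. The TATA box was taken as TATAAA, the AP-1 motif as TGANTCA, the SMAD motif as CAGACA, the GC box as GGGCGG and the TEAD motif as GGAATG, and none of these contains another. The Fbln1 window shown held 1 match, to the SMAD motif, seen here on the other strand as TGTCTG. The Fbln5 window shown held 2 matches, both to the GC box on the other strand as CCGCCC. The second Fbln1 window (85205758 to 85206007) overlaps the one shown, and its 1 SMAD match is the same site. It also held 1 GC box. The second Fbln5 window, which does not overlap the one shown, held 1 SMAD match and 0 GC boxes. Over its 2 windows each gene thus held both motifs. Of 32851 promoter windows of the same length, 17.1% held the SMAD motif and 32.7% the GC box. The other motifs were held by 12.4% (TATA box), 6.75% (AP-1) and 12.6% (TEAD). The windows shown had GC contents of 46.4% and 65.2%, and the second ones 62.4% and 49.6%, where the median of all windows was 52.4%. A match describes the letters and not a bound site. Of the 10 genes, 7 had windows in this table, and Eln, Mfap4 and Mfap5 did not.

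The latent TGF-beta binding proteins, relatives of fibrillin that attach to microfibrils, both rose at 1w. Ltbp2 binds fibrillin but not latent TGF-beta (chromosome 12, 84783212 to 84876558, minus strand). It was at 139, 156 and 176 CPM in control 1w and 523, 654 and 549.6 CPM in PQ 1w, far apart. The rise was 3.66-fold (log2 1.87 ± 0.12, adjusted p = 2.79e-07). At 4w the controls were at 159, 130.3 and 155 CPM and the PQ libraries at 208, 217 and 248 CPM. The groups stayed apart, and Ltbp2 rose 1.51-fold (log2 0.60 ± 0.12, adjusted p = 0.00779), the lowest adjusted p of the 10 genes at that time.

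Ltbp1, which holds latent TGF-beta in the matrix (chromosome 17, 75005480 to 75392512), moved less. Control 1w libraries were at 133, 124 and 141 CPM and PQ 1w libraries at 178, 149 and 189.5 CPM, with the nearest values 141 and 149 CPM. It rose 1.30-fold (log2 0.38 ± 0.08, adjusted p = 0.00220). At 4w the PQ libraries, at 101, 105 and 102 CPM, all lay below the controls, at 121, 118 and 118 CPM. That effect did not pass (log2 -0.21 ± 0.08, adjusted p = 0.112), and groups stood apart for 31.2% of all genes in that comparison.

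**Figure D2:**
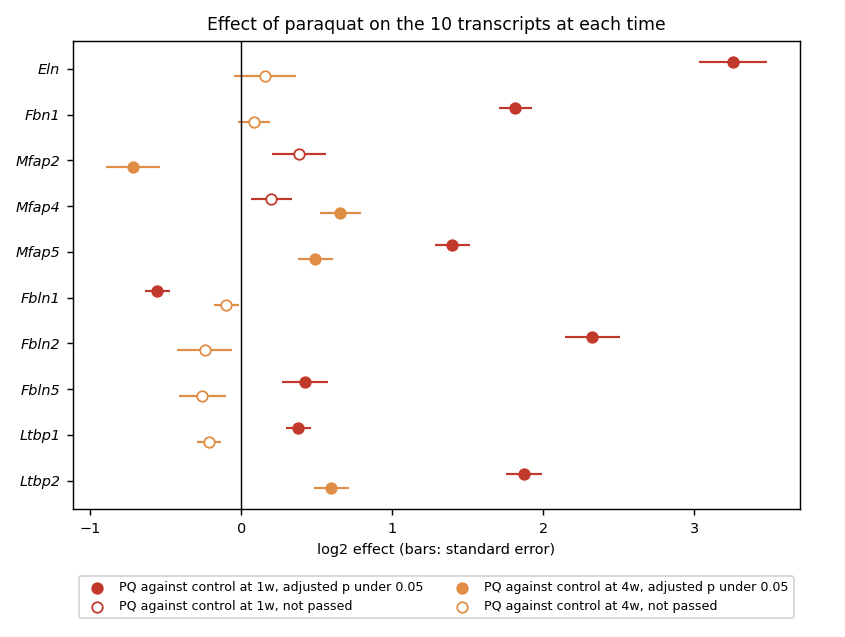
The log2 effect of PQ against control is plotted for each of the 10 genes at 1w (red) and 4w (orange), with standard errors as bars and filled points where the adjusted p was under 0.05. The 1w effects run from -0.56 (Fbln1) to 3.26 (Eln) and the 4w effects from -0.72 (Mfap2) to 0.66 (Mfap4).

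The effect of PQ differed between the times for 9 of the 10 genes by the interaction term. It was lower at 4w than at 1w for 8 and higher for Fbln1, and 17.9% of all genes tested had a lower and 14.1% a higher effect at 4w. The difference was largest for Eln (log2 -3.10 ± 0.30, adjusted p = 4.04e-05), followed by Fbln2 (log2 -2.57 ± 0.26, adjusted p = 5.25e-05). Mfap4 was the 1 gene whose difference did not pass, at log2 0.46 ± 0.19 (adjusted p = 0.0875). It passed in DESeq2 (adjusted p = 0.0373) and without PQ 4w replicate 2 (adjusted p = 0.0138). For Fbln5 the difference was log2 -0.68 ± 0.22 (adjusted p = 0.0311), and 7 of 12 single-library omissions raised its adjusted p above 0.05, at adjusted p = 0.0510 to 0.0763.

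Set directly beside each other, PQ 4w libraries were below PQ 1w libraries for 8 of the 10 genes and above for Fbln1. Over all genes 27.8% were lower and 26.7% higher. Fbn1 was 4.92-fold lower (adjusted p = 3.23e-08) and Ltbp2 2.57-fold lower (adjusted p = 2.33e-06). Fbln1 was 1.16-fold higher (adjusted p = 0.0405). That call was lost without a filter on low counts (adjusted p = 0.0683) and without PQ 1w replicate 1 or 3, PQ 4w replicate 2 or 3, control 1w replicate 1 or control 4w replicate 2 (adjusted p = 0.0556 to 0.137). Mfap4 was not called (log2 -0.32 ± 0.13, adjusted p = 0.0638), but passed in DESeq2 (adjusted p = 0.0418) and without PQ 1w replicate 1, PQ 4w replicate 1 or 3, or control 1w replicate 3 (adjusted p = 0.0299 to 0.0490).

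Cell type markers moved in the same comparison. All 7 mesothelial markers were lower in PQ 4w than in PQ 1w (summed 305 to 358 against 878 to 980.1 CPM), as were 5 of 7 pan-mesenchymal markers, with 1 higher (3057 to 3449 against 12793 to 14059 CPM), and 5 of 6 macrophage markers (303 to 355 against 649 to 686 CPM). All 7 airway markers were higher (22798 to 46639 against 4361 to 5567 CPM), as were 4 of 9 alveolar fibroblast markers with none lower (4035 to 4490 against 2565 to 3104 CPM). Smooth muscle markers held 4 that were higher and 2 that were lower, and adventitial markers 2 and 3. The part of these in the lower levels of the 8 genes was not tested.

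The saline controls also differed between the times, in 2 of the 10 genes. Fbn1 was 1.48-fold lower in control 4w than in control 1w (log2 -0.57 ± 0.11, adjusted p = 0.0190), and Mfap4 1.71-fold lower (log2 -0.77 ± 0.14, adjusted p = 0.0156). Both had all 4w values below all 1w values, as did 15.5% of all genes. Over all genes 4.20% were lower and 5.90% higher. Neither gene passed without control 1w replicate 3 or control 4w replicate 3, and Fbn1 did not pass without control 4w replicate 2 (adjusted p = 0.0518 to 0.0712 for the 2 genes). Markers of cardiac and pulmonary vein muscle moved in the same comparison: 5 of 6 were higher in control 4w, with summed levels of 533 to 1483 CPM against 51.2 to 282 CPM in control 1w. Of 7 airway epithelial markers 4 were higher, with summed levels of 45930 to 54815 against 22377 to 31441 CPM. Other lists were lower in control 4w, as Fbn1 and Mfap4 were. Of 7 pan-mesenchymal markers 3 were lower (Col1a2, Col3a1 and Vim), with all 7 summing to 2882 to 2971 against 3731 to 3988 CPM. Of 7 mesothelial markers 2 were lower (Msln and Upk3b), with all 7 summing to 324 to 378 against 425 to 494 CPM. Of 6 macrophage markers 3 were lower (Cd68, Mrc1 and Adgre1), with all 6 summing to 221 to 246 against 264 to 309.6 CPM. The part of any of these in the lower Fbn1 and Mfap4 was not tested.

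Per unit of transcript length, Mfap4 was the most abundant of the 10 genes in 3 groups and Eln in PQ 1w. In control 1w the mean FPKM was 534 ± 79.1 for Mfap4, 261 ± 41.2 for Eln and 69.4 ± 6.37 for Mfap2, in that order without overlap. Fbln1, Fbln5 and Mfap5 followed at 30.6, 27.8 and 27.4 FPKM, and their ranges overlapped. Below them were Ltbp2 at 23.0 and Fbn1 at 20.3 FPKM, whose ranges overlapped, then Ltbp1 at 18.3 and Fbln2 at 6.19 FPKM. In PQ 1w Eln stood at 2512 ± 418 FPKM and Mfap4 at 619 ± 65.3 FPKM, far apart. Mfap2 and Ltbp2 came next with overlapping ranges (91.2 and 85.1 FPKM), then Mfap5 and Fbn1 (72.8 and 72.1 FPKM), Fbln5 and Fbln2 (37.6 and 31.2 FPKM), and Ltbp1 and Fbln1 (24.4 and 20.99 FPKM). By mean FPKM, Fbln1 was the lowest of the 10 only in PQ 1w, where its range overlapped that of Ltbp1. Fbln2 was the lowest in the other 3 groups, without overlap with the next gene.

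As a share of the FPKM summed over the 10 genes, Eln held 25.6% ± 3.53 in control 1w and 70.1% ± 4.52 in PQ 1w. Mfap4 went from 52.4% ± 4.00 to 17.6% ± 3.13 while its own level did not pass a test. The share of Fbn1 was 2.003% ± 0.122 and 2.02% ± 0.0543. The summed FPKM of the 10 genes was 1018 ± 98.7 in control 1w and 3567 ± 379 in PQ 1w. At 4w it was 707 ± 82.2 in controls and 942 ± 94.6 after PQ, with Eln at 26.2% ± 4.71 and 23.4% ± 4.32 and Mfap4 at 44.7% ± 2.23 and 55.2% ± 7.84. The shares describe the deposited FPKM and were not tested.

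**Figure D3:**
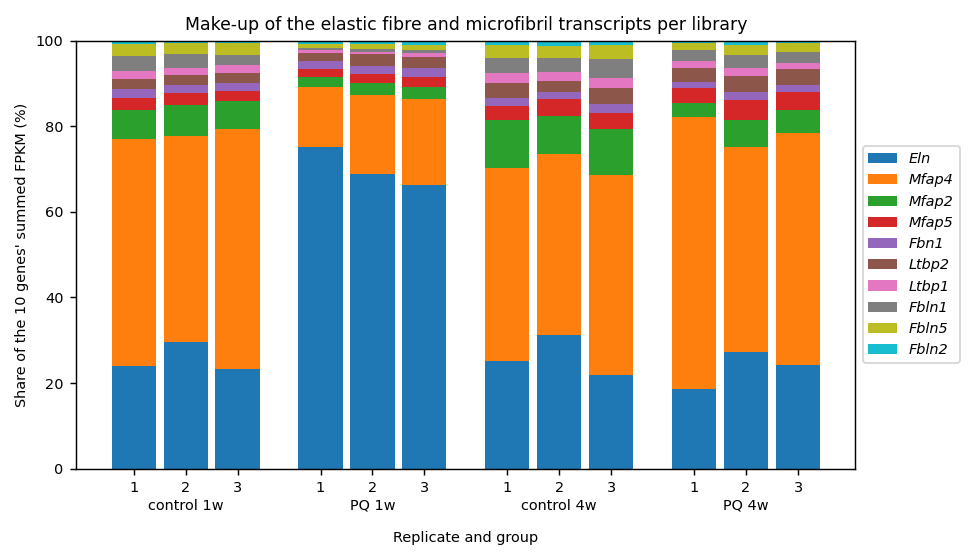
Stacked bars give each gene's share (%) of the FPKM summed over the 10 genes, 1 bar for each library in its group. Elastin holds 66.4 to 75.2% in the PQ 1w libraries and 18.7 to 31.2% in the other 9.

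Other genes listed under elastic fibres and microfibrils went both ways at 1w. Of 14 genes, 5 rose, 4 fell and 5 did not pass, where 25.9% of all genes rose and 22.9% fell, and the median log2 of the 14 was 0.21. Those that rose were Fbn2, Emilin1, Efemp2, Vcan and Mfge8, and those that fell Efemp1, Ltbp4, Tnxb and Mfap1a. Mfap1a is named for microfibrils but is not established as a structural protein of them, and it stays in the count as listed. Fbn2, the fibrillin of developing tissue, was at 0.905, 1.25 and 0.780 CPM in control 1w and 4.95, 12.8 and 6.27 CPM in PQ 1w. It rose 8.14-fold from this low level (adjusted p = 0.000243), and replicate 2 stood above the other two. Emilin1, an elastin-microfibril interface protein, rose 2.11-fold (adjusted p = 8.10e-07), and Efemp2, fibulin-4, which brings lysyl oxidase to tropoelastin, rose 1.99-fold (adjusted p = 2.11e-06).

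Members of the same families fell. Efemp1, fibulin-3, fell 2.07-fold (adjusted p = 5.23e-06), from 164, 171 and 146 CPM to 78.6, 68.1 and 85.6 CPM. Ltbp4, the latent TGF-beta binding protein that works with fibulin-5 in fibre assembly, fell 2.04-fold (adjusted p = 1.81e-05), from 919.6, 915 and 1124 CPM to 531, 464 and 455 CPM. Neither pair of groups overlapped. Thus Ltbp1 and Ltbp2 rose at 1w, Ltbp4 fell, and Ltbp3 did not pass (log2 0.15 ± 0.08, adjusted p = 0.152). At 4w, 1 of the 14 rose and 1, Efemp1, fell (1.31-fold, adjusted p = 0.0239), with a median log2 of -0.21. The 1 that rose, Fbln7, was at 0.714 to 2.03 CPM after PQ and is named here because the count is 1.

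Enzymes and helpers of elastic fibre assembly and crosslinking held more genes that rose than fell at 1w. Of 14 genes, 8 rose, 3 fell (Adamtsl4, Thsd4 and Adamts10) and 3 did not pass (median log2 0.66), and at 4w 1 rose, 2 fell (Adamtsl4 and Adamtsl5) and 11 did not pass (median log2 -0.09). Lox, which encodes the lysyl oxidase that crosslinks elastin and collagen, was at 143, 125 and 171 CPM in control 1w and 512, 461 and 466 CPM in PQ 1w. It rose 3.28-fold (adjusted p = 3.05e-06). Loxl1, the family member needed to renew elastic fibres in adult tissue, rose 1.91-fold (adjusted p = 4.86e-05). Loxl2 rose 3.71-fold (adjusted p = 2.85e-07) and Loxl3 2.86-fold (adjusted p = 9.54e-08). Fkbp10, a chaperone of collagen and tropoelastin in the endoplasmic reticulum, rose 3.85-fold (adjusted p = 1.32e-08).

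Adamtsl4, which encodes a fibrillin-binding ADAMTS-like protein, fell at both times, 1.32-fold at 1w (adjusted p = 0.00184) and 1.60-fold at 4w (adjusted p = 0.00105). Its PQ 4w values of 79.8, 78.4 and 81.3 CPM lay close together and below the controls at 137, 123 and 123 CPM. Loxl3 rose at 4w too, 1.27-fold (adjusted p = 0.0205). Lox and Loxl1 did not pass at 4w (log2 -0.01 ± 0.15 and -0.14 ± 0.12).

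**Figure D4:**
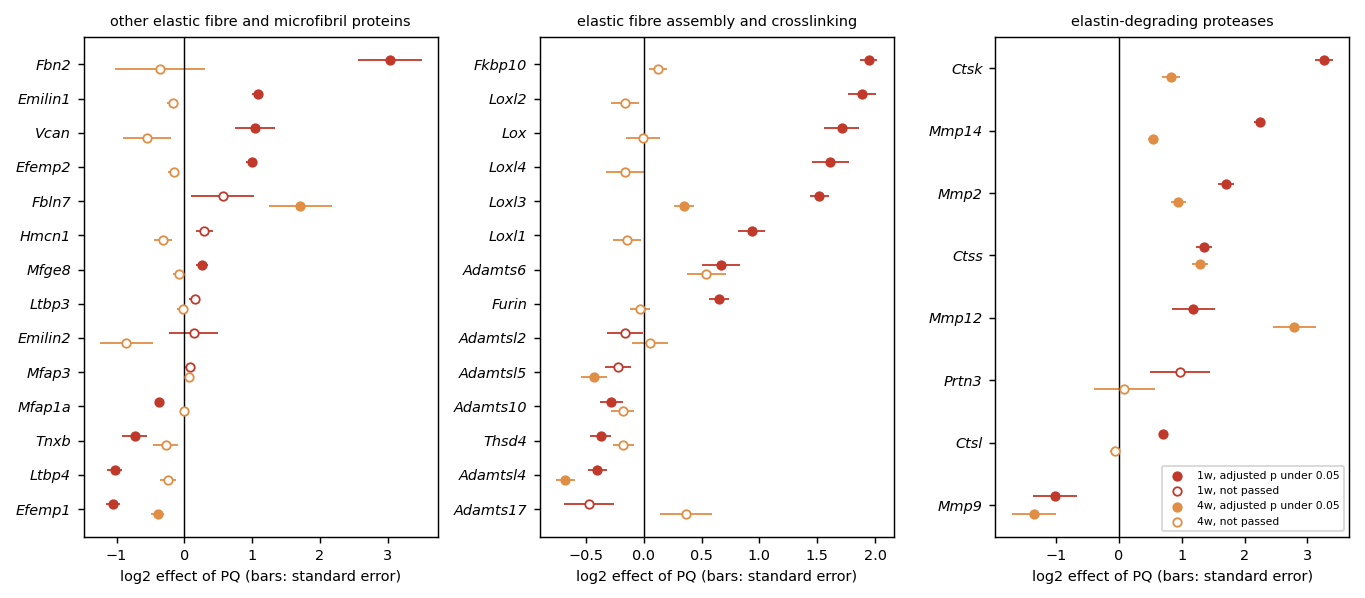
The log2 effects of PQ with standard errors are plotted at 1w (red) and 4w (orange), filled where the adjusted p was under 0.05. Panels hold other listed elastic fibre and microfibril genes (14 genes), assembly and crosslinking genes (14) and elastin-degrading proteases (8). Of the lysyl oxidase genes Loxl3 is filled at both times and the others at 1w, while Mmp12 lies farther right at 4w (log2 2.79) than at 1w (log2 1.18).

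Most of the tested proteases that can degrade elastin rose at both times. Of 11 listed genes, 10 were in the tables and 8 were tested. At 1w 6 rose, 1 fell and 1 did not pass (median log2 1.27), and at 4w 5 rose, 1 fell and 2 did not pass (median log2 0.68). The 1 that fell was Mmp9, a gelatinase, at both times. Elane and Ctsg were too low to be tested, at no more than 0.501 and 0.167 CPM in any library. Beside this and the other partner lists, 25.9% of all genes tested rose and 22.9% fell at 1w. At 4w the shares were 5.75% and 6.39%. Ctsk, cathepsin K, was at 15.1, 19.4 and 15.4 CPM in control 1w and at 143, 175 and 161 CPM in PQ 1w. Its rise was 9.62-fold (adjusted p = 2.69e-08), and at 4w it was 1.77-fold (adjusted p = 0.00445).

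Mmp12, the macrophage elastase, was at 5.55, 6.03 and 5.01 CPM in control 1w and 11.9, 11.4 and 14.3 CPM in PQ 1w. It rose 2.27-fold (adjusted p = 0.0119). At 4w its controls were at 3.93, 5.83 and 3.48 CPM and the PQ libraries at 29.1, 47.7 and 15.04 CPM, widely spread and all above the controls. The rise at 4w was 6.92-fold (log2 2.79 ± 0.35, adjusted p = 0.00105), above that at 1w by log2 1.61 ± 0.48 (interaction, adjusted p = 0.0229). Mmp14 rose 4.72-fold and 1.45-fold at 1w and 4w (adjusted p = 1.07e-08 and 0.00210), Mmp2 3.25-fold and 1.93-fold (7.11e-07 and 0.00123), and Ctss, cathepsin S, 2.55-fold and 2.45-fold (6.15e-06 and 0.000347). Of 6 macrophage markers 5 rose at 1w, and 3 rose and Marco fell at 4w. Their summed levels were 264 to 309.6 CPM in control 1w and 649 to 686 CPM in PQ 1w. At 4w the sums were 221 to 246 CPM in controls and 303 to 355 CPM after PQ. The sum was lower in PQ 4w than in PQ 1w, as were Ctsk, Mmp14, Mmp2 and Ctss, while Mmp12 was higher. The part of these markers in the protease levels was not tested.

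Of 11 listed inhibitors of these proteases, 8 were tested. Of these, 4 rose (Timp1, Timp2, Serpina3n and Serpinb1a) and 4 did not pass at 1w (median log2 0.51), while 1 rose and 7 did not pass at 4w (median log2 0.15). Timp1, an inhibitor of metalloproteinases, rose 10.6-fold at 1w (adjusted p = 8.81e-08), from 9.41 to 11.1 CPM up to 100.2 to 118 CPM. It did not pass at 4w (log2 0.34 ± 0.19, adjusted p = 0.269). Serpina3n, a serine protease inhibitor, rose 3.18-fold at 1w (adjusted p = 6.03e-06) and Timp2 1.27-fold (adjusted p = 0.00109). Cst3, cystatin C, which inhibits cathepsins, did not pass at 1w (log2 0.02 ± 0.09) and rose 1.34-fold at 4w (adjusted p = 0.0114).

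TGF-beta, which microfibrils store in latent form and which induces elastin in fibroblasts, was followed through 13 genes of its ligands, receptors and activators. At 1w 10 rose, 2 fell (Tgfbr3 and Lrrc32) and 1 did not pass (median log2 0.62), and at 4w 2 rose (Tgfbr1 and Tgfbr2), 1 fell and 10 did not pass (median log2 0.0003). Tgfb1 rose 1.28-fold at 1w (adjusted p = 0.00671) and Tgfb3 1.85-fold (adjusted p = 5.67e-06). The signalling receptor Tgfbr2 rose 1.71-fold at 1w (adjusted p = 4.63e-06) and 1.18-fold at 4w (adjusted p = 0.0468). Tgfbr3, the co-receptor betaglycan, fell 1.62-fold at 1w (adjusted p = 0.000291). Itgb3, an integrin chain that can activate latent TGF-beta, rose 1.37-fold at 1w (adjusted p = 0.00354) and fell 1.70-fold at 4w (adjusted p = 0.00170).

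Markers of the cell types that make elastic fibres moved unevenly at 1w. Of 7 pan-mesenchymal markers 5 rose and 1, Pdgfra, fell, with summed levels of 3731 to 3988 CPM in control 1w and 12793 to 14059 CPM in PQ 1w. The list includes 3 collagen genes, and its summed level counts their transcripts. Col1a1 rose 6.34-fold (adjusted p = 6.67e-09), Col1a2 4.57-fold (adjusted p = 5.34e-09) and Col3a1 3.74-fold (adjusted p = 8.44e-08). Thy1 did not pass (log2 -0.11 ± 0.14, adjusted p = 0.556). Of 9 alveolar fibroblast markers none rose and 7 fell, and all 9 summed to 4827 to 5431 CPM in control 1w and 2565 to 3104 CPM in PQ 1w, with Slc7a10 down 13.2-fold (adjusted p = 5.34e-09). Of 8 smooth muscle markers 4 rose (Acta2, Tagln, Actg2 and Des) and 2 fell (Lmod1 and Synpo2), and all 8 summed to 634 to 799 CPM in control 1w and 1150.5 to 1172 CPM in PQ 1w. Acta2, smooth muscle actin, rose 2.71-fold (adjusted p = 3.50e-05), while Myh11 and Cnn1 were among those that did not pass.

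Of 9 adventitial fibroblast markers 2 rose (Cd34 and Col15a1) and 1, Dpp4, fell, with summed levels of 941 to 1046 CPM in control 1w and 1180.3 to 1413 CPM in PQ 1w. Among 7 mesothelial markers 2 rose, Msln (4.40-fold, adjusted p = 2.94e-06) and Krt19, and 5 did not pass (median log2 0.15). All 7 summed to 425 to 494 CPM in control 1w and 878 to 980.1 CPM in PQ 1w. Endothelial markers fell in 5 of 6 cases (all 6 summed to 3486 to 3949 CPM in control 1w and 2189 to 2578 CPM in PQ 1w), and the airway markers Scgb1a1 and Cyp2f2 of 7 fell (all 7 summed to 22377 to 31441 and 4361 to 5567 CPM). No cardiac marker of 6 passed in edgeR or DESeq2, and 0 had an unadjusted p under 0.05 (51.2 to 282 and 59.1 to 218 CPM). Of the cartilage markers, 6 of 7 were listed, and their summed level was at most 1.64 CPM in any library, with Snorc not listed. The part of these cell types in the rise of elastin and its partners was not tested.

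At 4w, with ranges in CPM again summed over each whole list, the pan-mesenchymal markers held 2 that rose (Col3a1 and Thy1) and 5 that did not pass (2882 to 2971 CPM in controls, 3057 to 3449 CPM after PQ), and the alveolar fibroblast markers 4 that fell, Ces1d, Tcf21, Wnt2 and Slc7a10 (4514 to 4866 and 4035 to 4490 CPM). Smooth muscle markers held 1 that fell, Tagln, with the list at 823 to 1021 CPM in controls and 803, 966 and 577 CPM after PQ. Adventitial markers held 1 that rose (Col15a1) and 2 that fell (Pi16 and Clec3b), with 1048 to 1180.3 and 913 to 1055 CPM. No mesothelial marker passed in edgeR or DESeq2, where 2 had an unadjusted p under 0.05 (324 to 378 and 305 to 358 CPM). All 6 endothelial markers fell (3585 to 3914 and 2170 to 2776 CPM). Airway markers held 1 that fell, Cyp2f2, at summed levels of 36117, 46639 and 22798 CPM after PQ, replicate 3 being the lowest. Of the cardiac markers 0 passed in edgeR or DESeq2, and 1 had an unadjusted p under 0.05 (533 to 1483 and 132 to 941 CPM). The part of these in the 4w changes of Mfap4, Mfap5, Ltbp2 and Mfap2 was not tested.

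For each of the 10 genes, the genes with the most similar pattern over the 12 libraries were found by Pearson correlation of log2 CPM among genes with a mean of at least 1 CPM. The libraries share the same 4 groups, so the values describe a shared group pattern and carry no test. Eln was most like Mgp, matrix Gla protein (r = 0.996), and Heyl, a Notch target (r = 0.994). Fbn1 was most like Bgn, the proteoglycan biglycan (r = 0.996), and Col5a2, a chain of type V collagen (r = 0.995). Mfap5 was most like Cilp (r = 0.990) and Glb1 (r = 0.989), and Ltbp2 most like Septin9 (r = 0.992) and Pld3 (r = 0.987). Fbln2 was nearest to Ctsl (r = 0.986) and Arfgap1 (r = 0.984), and Fbln5 to Scd2 (r = 0.982) and Rsu1 (r = 0.978). Mfap2 had Ddah1 (r = 0.981) and Itga3 (r = 0.964), and Mfap4 had Itgb2 (r = 0.942) and Mars2 (r = 0.939). Fbln1 had Lrrc1 (r = 0.944) and Rprd1a (r = 0.936), and Ltbp1 had Smpd4 (r = 0.969) and Tnfrsf1a (r = 0.962).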

How the data were processed

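Lung RNA of 12 libraries in 4 groups of 3 was analysed, with groups taken from the labels. The authors used HISAT and RSEM 1.2.12 with mm10, per the submitters' processing notes. Their deposited expected counts are unscaled, per the file headers. Their deposited FPKM values, in the next column per the file headers, are scaled to length and depth. No HISAT version, annotation release or strandedness is given in the sources used here. Of the expected counts 69.7% were whole, and all were rounded. Genes absent from a library's table counted as 0 there, and 27 symbols turned into dates were restored from gene IDs.

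edgeR 4.0.16 in R 4.3.3 fitted a quasi-likelihood model (glmQLFit, glmQLFTest) to all 12 libraries with 4 group means, TMM scaling (factors 0.974 to 1.06) and filterByExpr (minimum count 10, minimum total 15), which kept 15921 genes. Adjusted p-values are Benjamini-Hochberg values over those genes, with a threshold of 0.05. Standard errors are approximate: log2 effect over root F. CPM used TMM-scaled totals, and log2 CPM an offset of 0.5 in correlations. Coordinates are those of the NCBI annotation of GRCm38.p6.

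The 10 genes, the partner lists and the cell type marker lists were chosen with earlier results of these data known. Genes named were the 10, and from each list the 3 with the smallest p at 1w and the 1 at 4w, plus Lox, Loxl1, Efemp2, Fbn2, Ltbp3, Ltbp4, Emilin1, Mmp12 and Tgfb1. For each of the 10, the 2 most correlated genes were also named. Other genes named to complete a small count were chosen after their values were seen, and not all marker genes met by the rule are described singly. Alternatives were RLE scaling, plain totals, no filter, DESeq2 1.42.0, a replicate block, fits of only the groups compared, limma 3.58.1 on log2(FPKM + 1) and log2(FPKM + 0.1), and leaving out each library. The test was tried on simulated data first. Python 3.11.15 with pandas 2.3.3, numpy 2.4.6, scipy 1.17.1 and matplotlib 3.10.9 did the rest.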

Additional observations from a re-analysis of the deposited data

Results flagged for a closer look

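The difference between the PQ effects at 4w and at 1w passed the interaction test in 9 of the 10 genes (edgeR, Benjamini-Hochberg adjusted p). Of all genes tested, 17.9% passed with a lower and 14.1% with a higher effect at 4w. Each value below is the log2 effect at 4w minus that at 1w. Eln had the largest difference, at -3.10 (adjusted p = 4.04e-05), and its 4w groups overlapped. Fbln2 followed at -2.57 (adjusted p = 5.25e-05) and Fbn1 at -1.73 (adjusted p = 2.63e-05). Ltbp2, at -1.27 (adjusted p = 0.000218), and Mfap5, at -0.91 (adjusted p = 0.00152), rose at both times and by less at 4w. Mfap2 differed by -1.10 (adjusted p = 0.00632), with a fall at 4w and a 1w effect above 0 that did not pass. Fbln5 differed by -0.68 (adjusted p = 0.0311) and Ltbp1 by -0.59 (adjusted p = 0.00251), both with a rise at 1w and a 4w effect below 0 that did not pass. Fbln1 differed by 0.46 (adjusted p = 0.0104), the 1 positive difference that passed, with a fall at 1w and a 4w effect that did not pass.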

How the results depend on the processing

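Under RLE scaling, plain totals, both limma fits of FPKM and the replicate block, all 50 results (10 genes in 5 comparisons) kept their direction and side of the threshold, and 47 did in DESeq2. Replicate numbers did not pair the libraries: same-numbered libraries correlated at -0.350 to 0.242 in their deviations. With the replicate block 8 of the 10 genes passed at 1w, 4 at 4w, 9 between the PQ groups, 2 between the controls and 9 for the interaction. Leaving out each library of a comparison left 327 of 360 such results as they were, took the call from 25 and gave 4 a call. The 4 that turned were small and not called. Fbn1 at 4w ran from log2 -0.0095 (without PQ 4w replicate 3) to 0.21. Between controls, Mfap2 ran from log2 -0.049 (without control 1w replicate 1) to 0.076, and was -0.021 without control 4w replicate 1. Mfap5 ran there from log2 -0.21 to 0.0054 (without control 4w replicate 1).

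At 4w the number of the 10 genes passing was 4, and 2 with only those groups fitted. Omissions gave 2 to 4, with 2 without control 4w replicate 1 or 3. All genes passing there were 1932, 746 with only those groups, and 641 to 2104 under omissions. Between controls 2 of the 10 passed and 0 to 2 under omissions, 0 without control 1w replicate 3 or control 4w replicate 3. All genes passing were 1609, and 123 to 1420 under omissions of controls, 931 without PQ 1w replicate 3 and 2570 without PQ 4w replicate 3. The Fbn1 to Eln ratio at 4w over control, 0.904, ran from 0.796 to 1.06 under omissions. Between controls, Fbln1 passed in DESeq2 (adjusted p = 0.0281) and Fbln5 with only those groups (0.00724) or without PQ 4w replicate 1 (0.0273), and Ltbp1 passed at 4w without PQ 1w replicate 2 (0.0457). With 3 libraries a group, small effects are limited by the spread between replicates, and Fbn2 and Fbln7, with few counts, also by depth.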
